A study of Mus musculus with 42 samples.

Results

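The contrast described here asks how the expression difference between mouse cells with and without a GFP signal at Pou5f1 changed between day 10 and day 12 of reprogramming from embryonic fibroblasts towards induced pluripotent stem cells (iPSC). For every gene the log2 fold change of mCherry+/GFP+ over mCherry+/GFP- cells, called the GFP effect below, was taken at each day, and the day 10 value was subtracted from the day 12 value. The contrast uses 12 of the 42 libraries of the series, 3 in each of 4 groups, and covers all 15197 of 48321 gene names that passed a low-count filter. A positive difference means that the GFP effect was more positive at day 12, and a negative difference that it was more negative.

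All 12 libraries came from male totalx2 cells, which carry mCherry at Tet1 (allele Tet1tm1.1Koh) and GFP at Pou5f1 (allele Pou5f1tm2Jae), with the genotype given as Tg(mCherry)/wt and Tg(GFP)/wt. The 4 groups were day 10 mCherry+/GFP-, day 10 mCherry+/GFP+, day 12 mCherry+/GFP- and day 12 mCherry+/GFP+ cells. The labels place both GFP- groups in stage I, the day 10 GFP+ cells in stage II and the day 12 GFP+ cells in stage III. Each group holds 1 library from each of 3 independently derived lines, and the replicate number names the line, so libraries are paired by line within and across days. The main test did not use this pairing, and a block by line was run as an alternative. The title of day 12 GFP- replicate 2 lacks the mCherry mark, and its gate rests on its source name. Day 8 mCherry+/GFP- cells of the same lines and wild-type iPSC clones, 3 libraries each, serve below as outer points. The gates were set on reporters at Pou5f1 and Tet1. All 4 groups are labelled mCherry+, so the GFP gate alone separated them, and the level of Pou5f1 is no finding between gates. Tet1 was selected through its reporter in all 4 groups alike. Counts per gene name do not separate transcripts of the cells' own genes from those of any delivered reprogramming factors, which touches Pou5f1, Klf4 and Myc.

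Reprogramming replaces the transcription programme of a fibroblast by that of a pluripotent cell. Fibroblasts secrete collagens and other matrix proteins and rely on TGF-beta signalling and the actin cytoskeleton, while pluripotent cells are held in their state by OCT4 (the product of Pou5f1), SOX2, NANOG and their partners, divide fast and keep germline genes and DNA methylation under their own regime. The mesenchymal programme is known to be shut early, whereas genes such as Nanog, Zfp42 and the germline genes come on late and in few cells, which is why reporters at Pou5f1 are used to sort the cells that advance.

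The 12 libraries held 6540256 to 20225778 counts from 18838 to 20897 genes, with 2.395 to 3.281% of counts on mitochondrially encoded genes. The pairs of libraries within a group differed beyond counting noise in all cases, with chi-square per degree of freedom of 4.79 to 22.56. Fibroblast levels separated the lines at day 10: the summed level of 10 fibroblast markers was 2229, 4923 and 7225 CPM (counts scaled to a common library total) in the GFP- libraries of lines 1, 2 and 3, and 3991, 10820 and 7493 CPM in the GFP+ libraries. At day 12 it was 7519, 9200 and 10620 CPM without GFP and 1896, 2318 and 2252 CPM with GFP. The day 10 groups overlapped in this sum, and the day 12 groups did not. The 10 markers of pluripotent cells summed to 662.3 to 916.5 CPM in day 10 GFP- cells, 2426 to 2575 CPM in day 10 GFP+ cells, 657.7 to 802.5 CPM in day 12 GFP- cells and 3493 to 3666 CPM in day 12 GFP+ cells, with no overlap between the gates at either day.

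**Figure D1:**
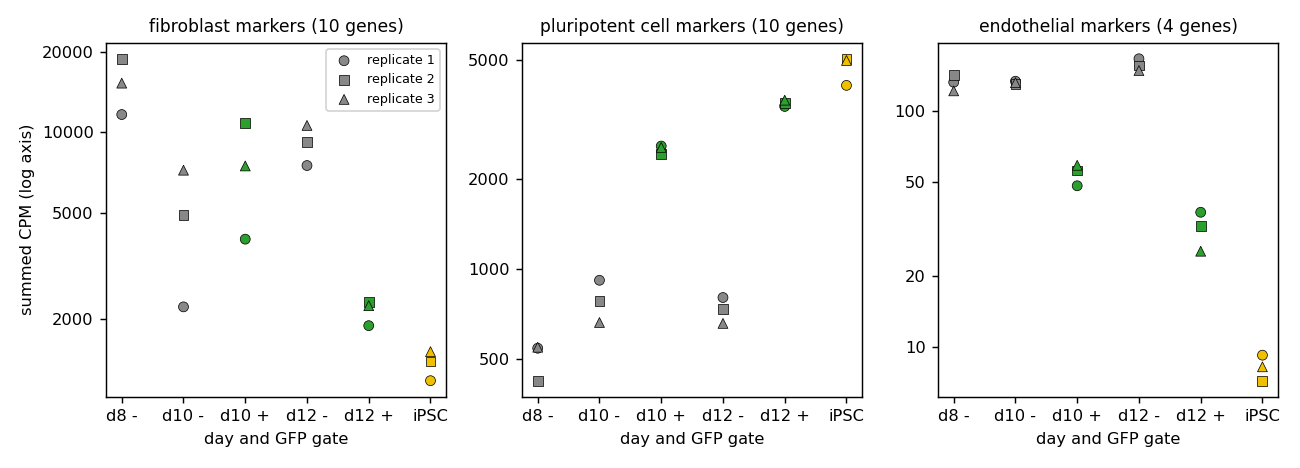
Summed CPM (log axis) of fibroblast, pluripotent-cell and endothelial markers in each library, by day and GFP gate, with day 8 cells and wild-type iPSC as outer points; each symbol is a library and its shape gives the replicate. Fibroblast markers overlapped between the gates at day 10 and ran from 7519 to 10620 CPM without GFP against 1896 to 2318 CPM with GFP at day 12. Most of the endothelial sum in the groups of the contrast was Tek.

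The GFP effect grew between the days. By edgeR's quasi-likelihood test with Benjamini-Hochberg adjustment, 4143 genes (27.3%) had a GFP effect that differed between the days, 1603 (10.5%) with a higher and 2540 (16.7%) with a lower effect at day 12. Over all tested genes the median difference was 0.01. The difference had the same sign in each of the 3 lines for 1601 of the 1603 genes called higher and for 2536 of the 2540 called lower, against 68.9% of all tested genes. The calls were made from these same libraries, so the match in sign is a description and no separate check. Against GFP- cells, 3398 genes (22.4%) differed in GFP+ cells at day 10, 1975 of them higher (13%) and 1423 lower (9.36%). At day 12 the count was 9357 (61.6%), with 4742 higher (31.2%) and 4615 lower (30.4%). The number of genes with a log2 effect of at least 1 in either direction went from 1900 at day 10 to 4710 at day 12, and the interquartile range of the effect from 0.522 to 1.188. When the spread was estimated from the 4 groups of the contrast alone, 5463 genes were called and 49.9% of them were higher, against 38.7% with all 21 libraries of the table in the fit.

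Most effects present at day 10 were also present at day 12. Of the 1975 genes higher with GFP at day 10, 1656 (83.8%) were higher at day 12 as well and 74 were lower. Of the 1423 genes lower at day 10, 1247 (87.6%) were lower at day 12 and 12 were higher. Across the 15197 genes the effects of the 2 days had a Pearson r of 0.68 and a Spearman rho of 0.571, given as a description because genes are not independent. Among the 2540 genes whose effect was lower at day 12, 1849 (72.8%) had no called effect at day 10 and were lower with GFP at day 12, and 487 (19.2%) were lower at both days. Among the 1603 genes whose effect was higher, 1085 (67.7%) had no called effect at day 10 and were higher at day 12, and 438 (27.3%) were higher at both.

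**Figure D2:**
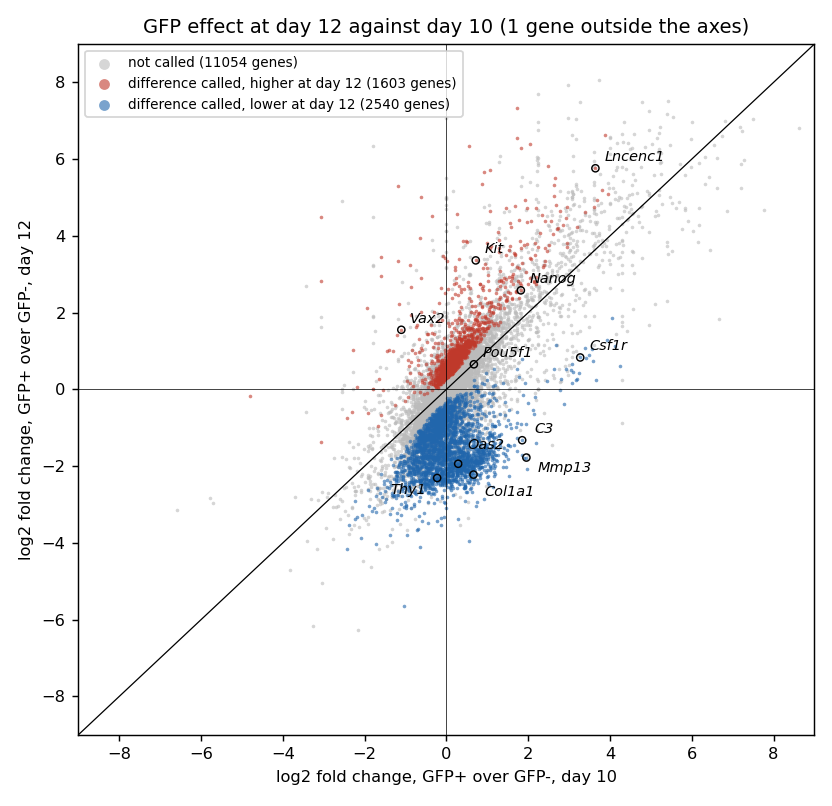
GFP effect (log2 fold change of GFP+ over GFP- cells) at day 12 (vertical axis) against day 10 (horizontal axis) for all tested genes, coloured by the call of the difference; the diagonal marks equal effects. The 2540 genes called lower form a broad cloud below 0 at day 12 around an effect near 0 at day 10, and 1 gene lies outside the axes.

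The difference can be read as a change over time in GFP+ cells minus a change over time in GFP- cells, and both gates took part. From day 10 to day 12, 3818 genes (25.1%) changed in GFP+ cells and 4263 genes (28.1%) in GFP- cells. Of the 2540 genes with a lower effect, 920 (36.2%) rose in GFP- cells with no call in GFP+ cells, 839 (33%) fell in GFP+ cells with no call in GFP- cells, and 524 (20.6%) did both. Of the 1603 genes with a higher effect, 753 (47%) fell in GFP- cells alone, 527 (32.9%) rose in GFP+ cells alone and 123 (7.67%) did both, where "alone" means that the other gate was not called. Calls in 1 gate and not in the other are no test of a difference between gates, which is what the contrast itself gives.

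**Figure D3:**
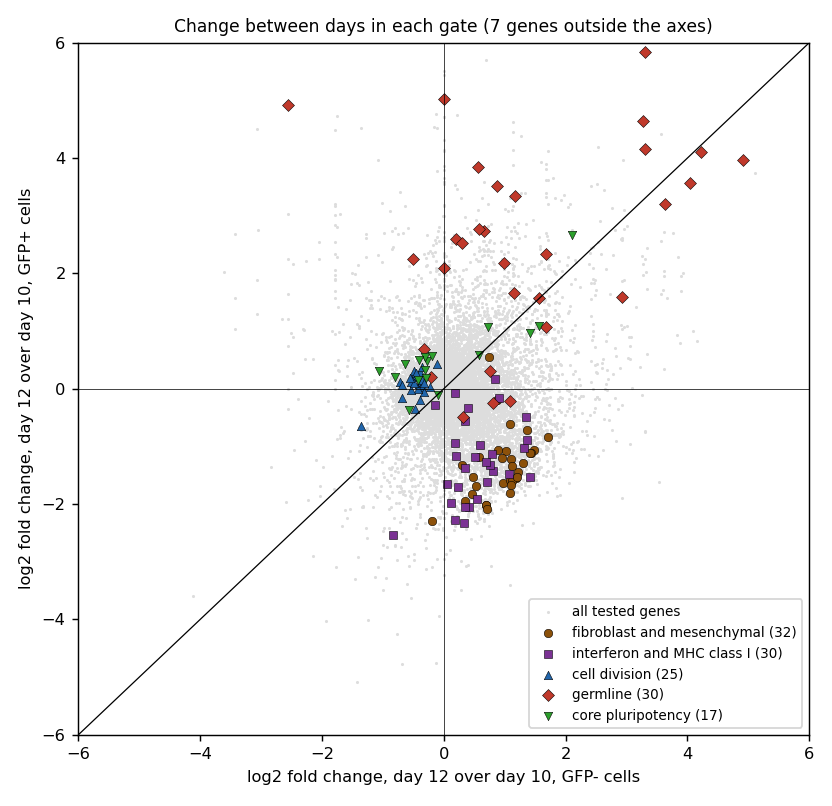
Log2 change from day 10 to day 12 in GFP+ cells (vertical axis) against the change in GFP- cells (horizontal axis) for all tested genes (grey) and the members of 5 gene lists; the diagonal marks equal change. Most fibroblast and interferon genes sit to the lower right, cell division genes left of the vertical zero line with GFP+ values near 0, and 7 genes lie outside the axes, none of them in a gene list.

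Fibroblast and mesenchymal genes had the most negative median of the 31 gene lists. All 32 genes of this list were tested, and the GFP effect was lower at day 12 in 30 and higher in 0, with a median difference of -2.48 beside 0.01 for all tested genes. Their median GFP effect was 0.47 at day 10, when 2 members were higher and 1 were lower with GFP, and -1.97 at day 12, when 31 members were lower and 1 was higher. The list moved in both gates: 20 members rose in GFP- cells between the days (median 1.05) and 26 fell in GFP+ cells (median -1.39). Leaving out any 1 of the 12 libraries gave 29 to 31 called members. In bulk samples, fewer cells of a type and less RNA per cell cannot be told apart.

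Col1a1, which encodes the main chain of fibrillar collagen I, was at 600.4, 1195 and 1771 CPM in day 10 GFP- cells of lines 1, 2 and 3 and at 1055, 2772 and 1818 CPM in day 10 GFP+ cells. At day 12 it was at 2003, 2537 and 3011 CPM without GFP and at 460.1, 568.7 and 591.4 CPM with GFP. The gates overlapped at day 10, with line 1 lowest in both, and were well apart at day 12 in all lines. The difference of log2 effects was -2.88 ± 0.46 (standard error, n = 3 lines, edgeR adjusted p = 0.00045), from 0.66 at day 10 to -2.22 at day 12.

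Vim, the intermediate filament of mesenchymal cells, was at 821.5, 1018 and 1359 CPM in day 10 GFP- and 415.8, 896 and 753.7 CPM in day 10 GFP+ cells, then at 1928, 1929 and 2057 against 328.1, 346.1 and 312.5 CPM at day 12. It was lower with GFP in every line at both days, and the gap widened (-1.95 ± 0.27, edgeR adjusted p = 0.00017). Thy1, a surface marker of fibroblasts that is lost early in reprogramming, was at 63.6, 95.6 and 167 CPM in day 10 GFP- and 56.4, 112 and 111 CPM in day 10 GFP+ cells. At day 12 it was at 237, 258 and 347 CPM without GFP and 48.4, 55.6 and 65.6 CPM with GFP, a difference of -2.08 ± 0.45 (edgeR adjusted p = 0.0030). The Thy1 values overlapped between the gates at day 10 and not at day 12. Pdgfrb, a receptor of mesenchymal cells for platelet-derived growth factor, differed by -2.55 ± 0.36, and Col6a2, a chain of the microfibrillar collagen VI, by -2.71 ± 0.39. The 2 members with no call were S100a4 (-1.62, adjusted p = 0.132), which encodes a calcium-binding protein, and Fn1, the matrix glycoprotein fibronectin (-0.19, adjusted p = 0.388). Fn1 stood at a mean of 1782 and 2489 CPM without and with GFP at day 10 and at 2995 and 3666 CPM at day 12.

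**Figure D4:**
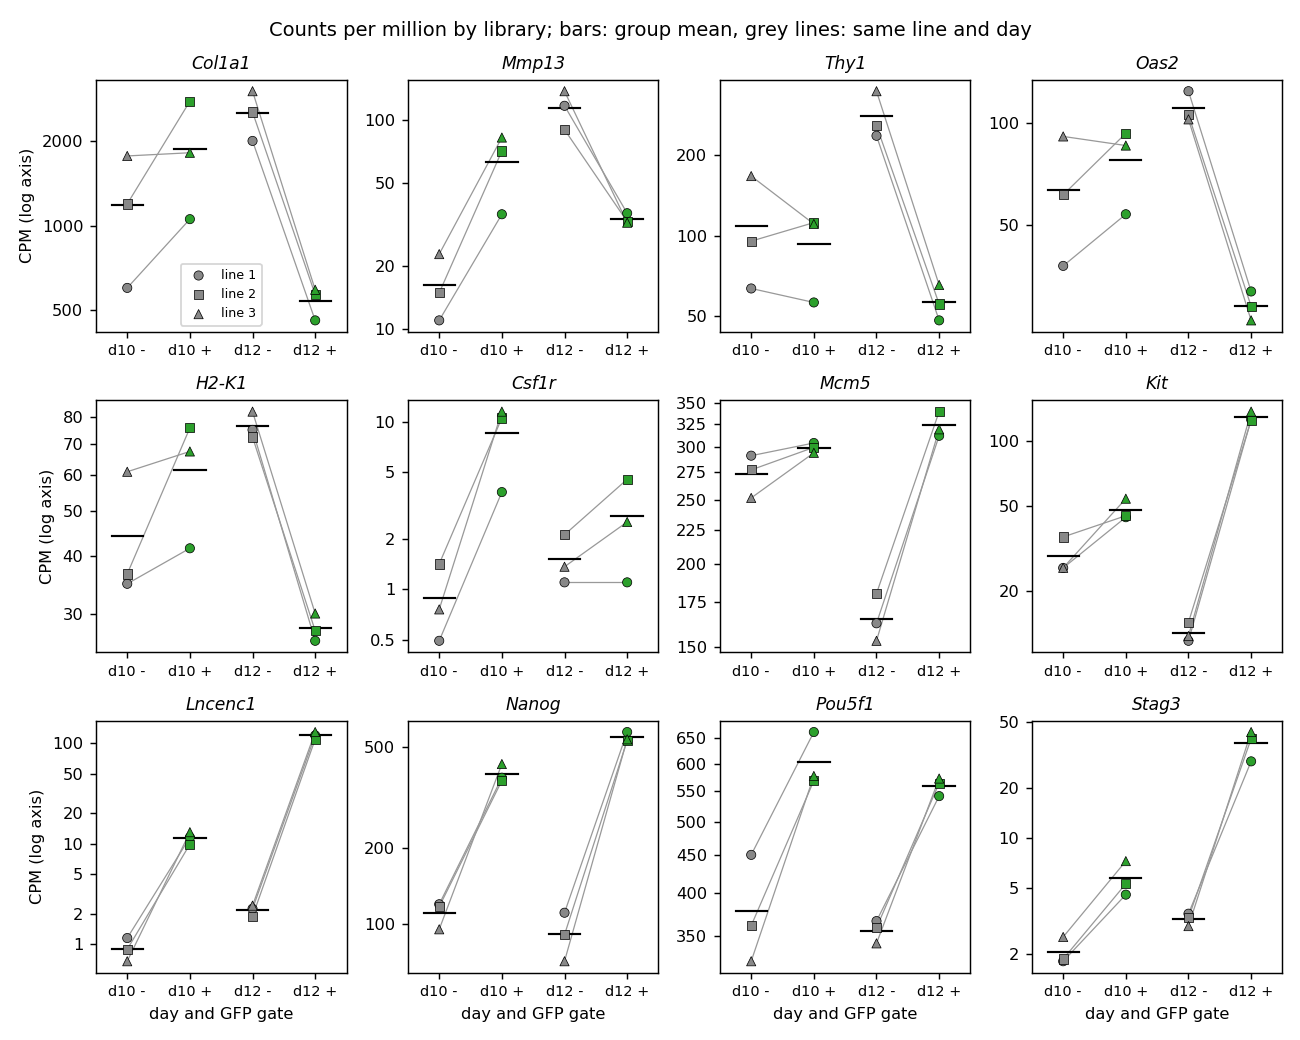
CPM (log axis) of 12 genes in the 12 libraries of the contrast, by day (d10, d12) and GFP gate (- grey, + green); symbols give the line, bars the group mean, and grey lines join the gates of a line within a day. Col1a1, Thy1, Oas2 and H2-K1 overlapped between gates at day 10 and were lower with GFP in all 3 lines at day 12, Kit and Lncenc1 were higher with GFP at both days with a wider gap at day 12, and Pou5f1 had an effect of 0.67 at day 10 and 0.65 at day 12.

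Genes of extracellular matrix remodelling followed: of 22 tested, 19 had a lower effect at day 12 and 0 a higher one (median -2.03). The largest of these was Mmp13 (chr9:7272514-7283333, plus strand, mm10), a collagenase of connective tissue. It was at 10.97, 14.87 and 22.8 CPM in day 10 GFP- cells and 35.4, 71.1 and 82.6 CPM in day 10 GFP+ cells, and at 117, 90.1 and 138 against 35.8, 32.6 and 32.2 CPM at day 12. The gates did not overlap at either day, and their order was reversed: every GFP+ library was above every GFP- library at day 10 and below at day 12. The difference was -3.73 ± 0.41 (edgeR adjusted p = 3.6e-05), from an effect of 1.96 (adjusted p = 9.4e-05) to one of -1.78 (adjusted p = 3.8e-05). S100a6, a calcium-binding protein of mesenchymal cells, had a difference of -1.68 ± 0.22, and Anxa3, an annexin that binds membranes, one of -1.74 ± 0.29; both were already lower with GFP at day 10.

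Mmp13 was 1 of 74 genes that were higher with GFP at day 10 and lower at day 12, both by the test. Secreted and plasma-protein genes are among those named by rule. C3, the central complement component, was at 5.57, 18.3 and 15.6 CPM in day 10 GFP- cells and 26.2, 66.9 and 49.1 CPM in day 10 GFP+ cells, then at 31.3, 35.8 and 31.9 against 12.0, 13.5 and 13.9 CPM at day 12 (difference -3.18 ± 0.46, edgeR adjusted p = 0.00023). As for Mmp13, the gates were apart at both days in opposite order, with line 1 the lowest in both gates at day 10. Cd36, a fatty acid and thrombospondin receptor (-3.31 ± 0.59), Lbp, the lipopolysaccharide-binding protein (-3.12 ± 0.55), and Htra3, a secreted serine protease (-3.11 ± 0.43), changed sign in the same way. So did Wisp2 (Ccn5), a matricellular protein (-3.09 ± 0.49), Srpx2, a secreted sushi-domain protein (-3.09 ± 0.48), and Cyp2d22, a cytochrome P450 (-3.16 ± 0.49). Of the 12 largest negative differences under the naming rule, the others were Zcchc5 (-3.77 ± 0.59), Ptn, the heparin-binding growth factor pleiotrophin (-3.12 ± 0.53), C4b, another complement component (-3.07 ± 0.55), and Lrrc17 (-3.12 ± 0.53), which had no called effect at day 10.

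TGF-beta and activin response genes had a lower effect at day 12 in 16 of 22 cases and a higher one in 0 (median -1.5). The receptor gene Tgfbr2 was at 60.8, 104 and 154 CPM in day 10 GFP- and 66.0, 167 and 120 CPM in day 10 GFP+ cells, and at 194, 193 and 213 against 44.8, 50.1 and 42.7 CPM at day 12. Its levels overlapped at day 10 and were about level among lines within each gate at day 12 (difference -2.28 ± 0.42, edgeR adjusted p = 0.0011). Smad3, which carries the TGF-beta signal to the nucleus, was lower with GFP at both days and more so at day 12 (-0.75 ± 0.14). Cyr61, a matricellular target of both TGF-beta and YAP, had a difference of -1.64 ± 0.31. The ligand genes Tgfb1, Tgfb2 and Tgfb3 differed by -1.92, -2.37 and -2.39. Smad7 (-0.20, adjusted p = 0.647) and Skil (-0.02, adjusted p = 0.953), feedback inhibitors of the pathway, were not called.

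YAP and TEAD are transcription regulators that respond to cell spreading and contact. The list of their targets also holds the regulators' own genes, such as Yap1, Wwtr1 and Tead2. Of its 21 members 13 had a lower effect and 1 a higher one (median -0.85). Axl, a receptor tyrosine kinase, was at 185, 202 and 242 CPM in day 10 GFP- and 80.1, 138 and 118 CPM in day 10 GFP+ cells, and at 330, 299 and 319 against 56.9, 55.6 and 51.6 CPM at day 12. Its gates were apart at both days, and the difference was -1.63 ± 0.26 (edgeR adjusted p = 0.00037). Lats2, a kinase that restrains YAP, differed by -1.25 ± 0.22, although 20.1% of its span overlaps Xpo4 on the same strand, where reads were not counted. F3, the tissue factor that starts clotting, differed by -2.00 ± 0.35. Tead2, the TEAD family member typical of early embryos, was the member called the other way (0.57 ± 0.13, edgeR adjusted p = 0.0037).

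Of 12 muscle contractile genes 6 had a lower and 1 a higher effect (median -0.87, or -1.29 with group means at or under 3 counts per library set to that floor). Acta2, smooth muscle actin, was at 35.2, 51.9 and 78.4 CPM in day 10 GFP- cells and 335, 256 and 330 CPM in day 12 GFP- cells. In GFP+ cells it was at 21.4, 58.9 and 57.4 CPM at day 10 and 69.2, 50.7 and 61.4 CPM at day 12. Acta2 thus rose in the GFP- gate (log2 change 2.48) with no call in the GFP+ gate (0.40), and the difference of effects was -2.07 ± 0.44 (edgeR adjusted p = 0.0026). Actg2, another smooth muscle actin, differed by -1.69 ± 0.33. Ttn, the giant sarcomere protein, went the other way (3.10 ± 0.74) from means of 0.627 and 2.02 CPM at day 10 to 0.244 and 7.44 CPM at day 12. The size of the Ttn difference is uncertain, since its day 12 GFP- mean was near 3 counts in a library (0.231 CPM). Of 12 endoderm genes 6 were lower and 1 higher. The lower ones named by rule encode the collagen IV chains Col4a1 (-1.96 ± 0.28) and Col4a2 (-2.04 ± 0.28) and the laminin chain Lamb1 (-1.25 ± 0.16). Another laminin chain in the list, Lama1, was not called (0.50 ± 0.20, adjusted p = 0.0634). The higher one was Hnf4a (edgeR adjusted p = 0.0032), at means of 0.283 and 0.0819 CPM without and with GFP at day 10 and 0.122 and 1.48 CPM at day 12. Its day 10 GFP+ and day 12 GFP- means were under 3 counts in a library, so no fold is given. The endoderm factors Gata4 and Gata6 were not called (adjusted p = 0.610 and 0.893). Of the 20 listed endoderm genes Sox17, Foxa2, Foxa1, Afp and Ttr were among the 8 too low to test. In the endothelial list 2 of 8 (25%, near the 27.3% of all tested genes) were lower, the receptors Tek (-1.05 ± 0.16) and Flt1 (-2.35 ± 0.50). The 4 endothelial markers that could be tested summed to 131.2 to 134.4 CPM in day 10 GFP- cells, 48.3 to 59.03 CPM in day 10 GFP+ cells, 149.2 to 167.4 CPM in day 12 GFP- cells and 25.46 to 37.27 CPM in day 12 GFP+ cells. Most of this sum was Tek, at 127.4 to 132 CPM in day 10 GFP- cells. Cdh5, Kdr and Erg were at most 4.16 CPM in any library of the contrast and were not called. Tie1, Emcn and Sox18 were too low to test.

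Interferon-induced and MHC class I genes had a lower effect at day 12 in 27 of 30 cases and a higher one in 0 (median -1.94). These genes encode antiviral effectors, the machinery that loads peptides and the class I molecules that present them, and they are known to respond to STAT and IRF factors. Their median GFP effect was 0.42 at day 10, with 3 members higher, and -1.49 at day 12, with 26 members lower. Between the days 23 members fell in GFP+ cells and 0 rose, while 9 rose in GFP- cells and 0 fell. The 3 members with no call were Mx1 (-1.70, adjusted p = 0.0806), Ddx58 (-0.14, adjusted p = 0.673) and Bst2 (-0.27, adjusted p = 0.557).

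Oas2, an antiviral enzyme that senses double-stranded RNA, was at 37.9, 61.4 and 91.3 CPM in day 10 GFP- and 53.8, 93.2 and 85.8 CPM in day 10 GFP+ cells, and at 124, 106 and 102 against 31.9, 28.8 and 26.2 CPM at day 12. The gates overlapped at day 10 and were apart at day 12 (difference -2.23 ± 0.33, edgeR adjusted p = 0.00023). H2-K1, a classical class I heavy chain, was at 34.8, 36.5 and 60.8 CPM in day 10 GFP- and 41.5, 75.7 and 67.3 CPM in day 10 GFP+ cells, and at 75, 72.3 and 82.1 against 26.2, 27.5 and 30 CPM at day 12. Here too the day 10 gates overlapped, and the difference was -1.93 ± 0.32 (edgeR adjusted p = 0.00045). Psmb8, a subunit of the immunoproteasome, differed by -2.96 ± 0.49. Isg15, a ubiquitin-like modifier, Ifit1, which binds foreign RNA, and B2m, the light chain of class I molecules, were chosen for their promoters after their values were seen and differed by -2.66 ± 0.51, -2.46 ± 0.56 and -1.57 ± 0.43.

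The promoter stretches of these 3 genes are shown because their members moved together and each holds the letters of an interferon response element, GAAA and again GAAA with any 2 bases between, searched on both strands of the 250 bases before the start. The sequences are from RefSeq (GRCm38.p6), 5′ to 3′ on the gene's strand, with the match in capitals: Isg15 at chr4:156200837-156200946, minus strand, Ifit1 at chr19:34640754-34640863, plus strand and B2m at chr2:122147498-122147607, plus strand. In Ifit1 the match is on the opposite strand and reads as its reverse complement.
Isg15: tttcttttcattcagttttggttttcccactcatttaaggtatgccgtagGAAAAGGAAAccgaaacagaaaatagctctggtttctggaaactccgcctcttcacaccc
Ifit1: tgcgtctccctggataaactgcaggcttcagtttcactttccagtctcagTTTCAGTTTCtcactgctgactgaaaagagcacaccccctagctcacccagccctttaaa
B2m: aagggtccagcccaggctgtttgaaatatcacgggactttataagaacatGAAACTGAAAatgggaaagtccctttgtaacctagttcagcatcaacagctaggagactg
The motif was in 8 of the 22 promoters of the list that were in the RefSeq table (36.4%), in 4.72% of those of genes called lower, in 2.62% of those called higher and in 3.08% of the 10793 promoters of tested genes.

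Leukocyte and macrophage genes behaved differently from the fibroblast list at day 10. Their median GFP effect was 2.70 at day 10, when 11 of 15 tested members were higher with GFP, and 0.50 at day 12, when 3 were higher. The effect was lower at day 12 in 7 of 15 and higher in 0 (median -2.12, or -1.97 with group means at or under 3 counts per library set to that floor). Called were thus 46.7%, beside 27.3% of all tested genes. Csf1r, the receptor for macrophage colony-stimulating factor, was at 0.491, 1.42 and 0.757 CPM in day 10 GFP- and 3.81, 10.6 and 11.5 CPM in day 10 GFP+ cells, and at 1.10, 2.12 and 1.36 against 1.10, 4.54 and 2.52 CPM at day 12. Every GFP+ library was above every GFP- library at day 10, while the gates overlapped at day 12 (difference -2.44 ± 0.69, edgeR adjusted p = 0.0127). Lyz2, the lysozyme of macrophages, went from 3.27, 15.2 and 9.09 CPM without and 29.5, 99.7 and 107 CPM with GFP at day 10 to 17.3, 24.5 and 17.9 against 17.5, 39.3 and 24.9 CPM at day 12 (-2.66 ± 0.69, edgeR adjusted p = 0.0099). Line 1 was again the lowest in the day 10 groups. Itgb2, the leukocyte integrin beta chain, differed by -2.31 ± 0.63. Laptm5, a lysosomal membrane protein and the most abundant member, was lower with GFP at day 10, at 172.9, 157.7 and 142.9 CPM against 291.8, 258.8 and 210.3 CPM (-0.68, adjusted p = 0.0010), and its difference between days was not called (-0.05, adjusted p = 0.878). With Laptm5 included, the 10 leukocyte markers summed to 233.4 to 302.6 CPM in day 10 GFP- and 234.1 to 336 CPM in day 10 GFP+ cells, which overlapped, and to 243.9 to 272.4 against 155.9 to 227.2 CPM at day 12. The defining marker Ptprc (CD45) had 1.48, 4.69 and 5.77 CPM in day 10 GFP+ cells and 0.246 to 1.88 CPM in the other groups (-2.12, adjusted p = 0.0536). The count of called members ran from 4 to 11 when 1 library was left out: it was 4 without day 12 GFP+ replicate 1, day 10 GFP+ replicate 2 or day 10 GFP+ replicate 3, and 11 without day 10 GFP+ replicate 1. The share of the day 10 GFP+ profile that came from leukocytes was not tested.

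Imprinted genes, expressed from 1 parental allele and many of them growth regulators of the embryo, had a lower effect at day 12 in 15 of 30 cases and a higher one in 0 (median -0.90). This is 50% called, against 27.3% of all tested genes. Cdkn1c, the cell cycle inhibitor p57, was at 35.0, 76.4 and 88.5 CPM in day 10 GFP- and 62.2, 206 and 124 CPM in day 10 GFP+ cells, and at 89.0, 110 and 86.2 against 29.5, 29.0 and 22.2 CPM at day 12. It was higher with GFP at day 10 (0.98, adjusted p = 0.041) in every line although the groups overlapped, and lower at day 12, a difference of -2.80 ± 0.47 (edgeR adjusted p = 0.00058). Mest, a mesoderm-expressed hydrolase, changed sign in the same way (-1.58 ± 0.24). Gnas, which encodes a G protein subunit, was lower with GFP at both days (-0.96 ± 0.12, edgeR adjusted p = 6.0e-05). Igf2 and H19, the neighbouring growth factor and noncoding RNA, differed by -2.41 and -2.27, and Dlk1 by -2.84. Dcn is shared with the fibroblast list.

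In the p53 and senescence list 6 of 21 had a lower effect and 0 a higher one (median -0.10). This share of 28.6% is near the 27.3% of all tested genes. Among the 6, the death receptor Fas differed by -2.00 ± 0.34, and the cell cycle inhibitors Cdkn2b and Cdkn1a by -1.79 ± 0.41 and -0.76 ± 0.17. Of 25 immediate-early and stress genes 9 were lower and 1 higher (median -0.67), a share called of 40%. Zfp36, which destabilises inflammatory mRNAs, and Ier3 differed by -1.29 ± 0.27 and -1.46 ± 0.34, and the chaperone Hsph1 by 0.55 ± 0.13. Without day 10 GFP+ replicate 2 the called members of this list were 5 in place of 10.

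Among surface markers of reprogramming stages, 8 of 17 had a lower and 3 a higher effect (median -0.68). Cd34, a sialomucin of stromal and progenitor cells, and Ly6e, a GPI-anchored protein, differed by -2.03 ± 0.35 and -1.59 ± 0.27. Kit (chr5:75574916-75656722, plus strand, mm10), the receptor for stem cell factor, had the smallest adjusted p of all tested genes in this contrast. It was at 25.6, 35.7 and 25.6 CPM in day 10 GFP- and 44.1, 44.8 and 53.9 CPM in day 10 GFP+ cells, and at 11.7, 14.2 and 12.3 against 126, 125 and 138 CPM at day 12. The gates were apart at both days, and the gap opened from both sides: Kit fell in GFP- cells (-1.20, adjusted p = 2.3e-05) and rose in GFP+ cells (1.45, adjusted p = 4.3e-07). The difference of effects was 2.64 ± 0.19 (edgeR adjusted p = 2.7e-07).

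The other large positive differences came mostly from a rise in GFP+ cells. Lncenc1 (chr13:97434970-97497007, plus strand, mm10), a long noncoding RNA of embryonic stem cells, was at 1.15, 0.885 and 0.673 CPM in day 10 GFP- and 11.6, 9.85 and 13 CPM in day 10 GFP+ cells, and at 2.25, 1.88 and 2.41 against 120, 109.9 and 129.6 CPM at day 12. It was higher with GFP in every line at both days, and the effect went from 3.64 to 5.76 (difference 2.12 ± 0.23, edgeR adjusted p = 3.6e-05). Sept1, a septin of the cytoskeleton, was at 8.19, 7.26 and 6.06 CPM in day 10 GFP- and 15.5, 14.7 and 22.5 CPM in day 10 GFP+ cells, and at 6.55, 5.53 and 6.08 against 74.6, 85.2 and 114 CPM at day 12. The 3 GFP- values hardly moved between days, and the difference was 2.62 ± 0.27 (edgeR adjusted p = 1.4e-05). Vax2, a homeobox factor of the ventral eye, was 1 of 12 genes lower with GFP at day 10 and higher at day 12 (2.66 ± 0.45), and its antisense neighbour Vax2os, counted on its own strand, differed by 2.16 ± 0.45. Tcfl5, a basic helix-loop-helix factor of spermatocytes, differed by 2.11 ± 0.32, and Camk2b, a calmodulin-dependent kinase subunit, by 2.05 ± 0.32. Lrrc2 (2.41 ± 0.71), Galnt6, a glycosyltransferase (2.12 ± 0.63), and Mcf2, a guanine nucleotide exchange factor (adjusted p = 0.0422), were under 1 CPM in all GFP- libraries, and their calls rested on single libraries. The GFP- means of Mcf2, 0.204 CPM at day 10 and 0.162 CPM at day 12, were under 3 counts in a library, so no fold is given. Lrrc2 lost its call without day 10 GFP- replicate 3, and Galnt6 without replicate 1 or 2 of the day 10 GFP- group or replicate 1 of the day 12 GFP- group. Mcf2 lost it under 10 of 20 alternatives, with an adjusted p of 0.764 without day 10 GFP- replicate 2.

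**Figure D5:**
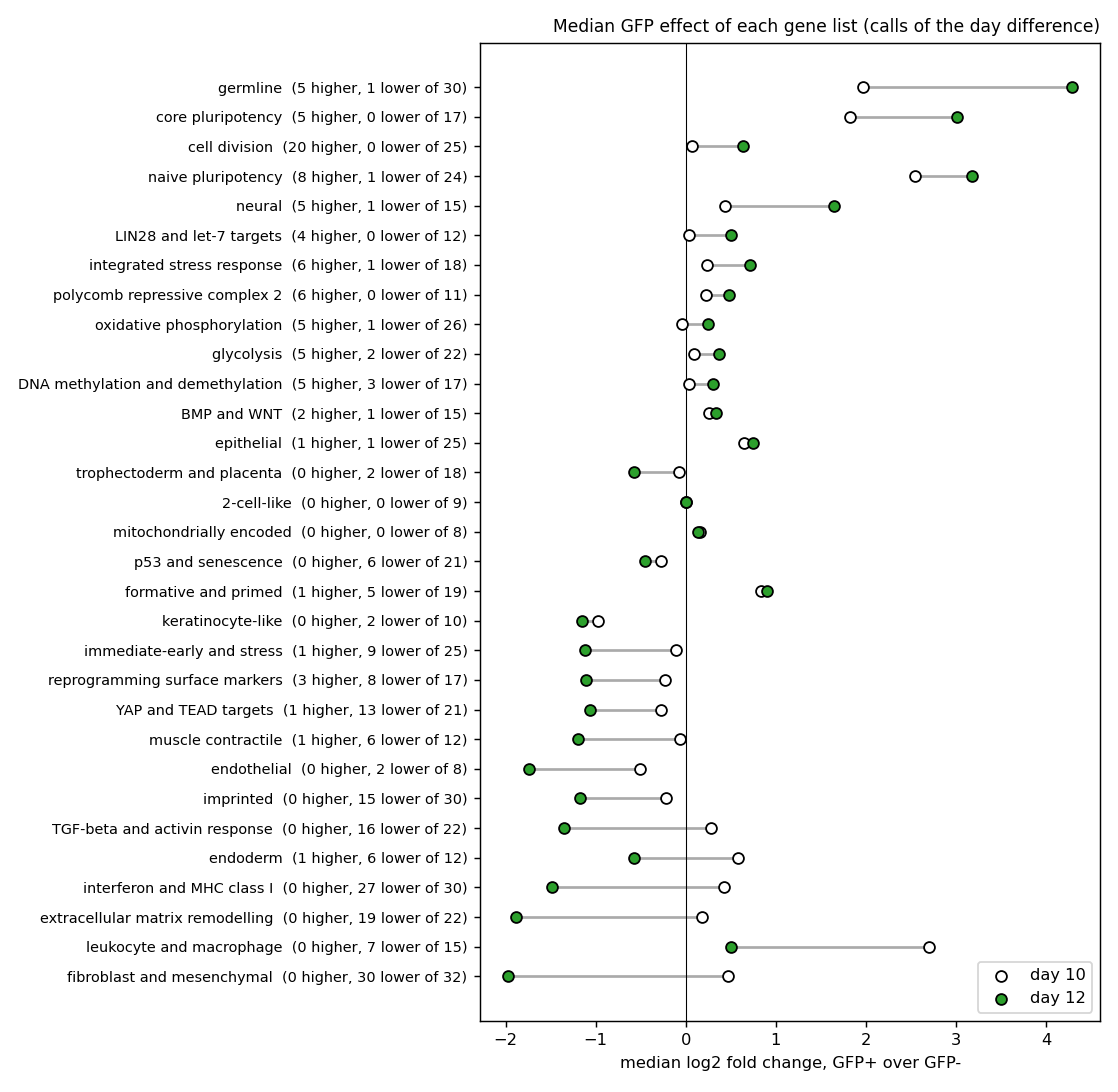
Median GFP effect (log2 fold change of GFP+ over GFP- cells) of each gene list at day 10 (open) and day 12 (green), ordered by the median of the members' differences, with the number of members whose difference was called. The fibroblast list went from 0.47 to -1.97 and the leukocyte list from 2.70 to 0.50, while the core pluripotency list was above 1.8 at both days.

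Pluripotency genes were already far higher with GFP at day 10, and their effect widened in a minority. In the core list 16 of 17 tested genes were higher with GFP at day 10 and 16 at day 12. The effect was higher at day 12 in 5 and lower in 0 (median 0.57), a share called of 29.4% that is near the 27.3% of all tested genes. Sox2, also in the list, could not be tested because no reads were counted for it in any library. Pou5f1 itself had a GFP effect of 0.67 at day 10 and 0.65 at day 12. It was at 451, 361 and 323 CPM in day 10 GFP- and 662, 569 and 577 CPM in day 10 GFP+ cells, and at 366, 359 and 342 against 542, 564 and 573 CPM at day 12. Its gates were apart at both days, as the sort on its reporter makes them, and the difference was -0.02 ± 0.23 (edgeR adjusted p = 0.973), with a sign that turned to 0.02 under other size factors.

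Nanog, a core factor of the pluripotent state, was at 120, 117 and 95.6 CPM in day 10 GFP- and 379, 369 and 429 CPM in day 10 GFP+ cells, and at 111, 91.0 and 71.5 against 573, 531 and 537 CPM at day 12. The gates were apart at both days, and the difference was 0.76 ± 0.20 (edgeR adjusted p = 0.0100). Sall4, a zinc finger partner of OCT4, differed by 0.86 ± 0.19, and Trim71, a let-7 target and RNA-binding ubiquitin ligase, by 0.91 ± 0.20. Lin28a (0.35, adjusted p = 0.388) and Dppa4 (-0.46, adjusted p = 0.465) had GFP effects of 3.65 and 5.47 at day 10 and 4.0 and 5.01 at day 12, and the difference was not called.

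Of 24 tested naive pluripotency genes 8 had a higher effect at day 12 and 1 a lower one (median 0.48). The share called was 37.5%, beside 27.3% of all tested genes. Mybl2, a MYB factor of the cell cycle, was at 212.7, 213.7 and 182.8 CPM in day 10 GFP- and 596.6, 540.5 and 648.8 CPM in day 10 GFP+ cells, and at 178.8, 180.9 and 163.6 against 956.4, 972 and 1050 CPM at day 12. It was higher with GFP in all lines at both days (difference 0.96 ± 0.13, edgeR adjusted p = 0.00017). The naive-state factors Nr5a2 and Tfcp2l1 differed by 1.44 ± 0.35 and 0.62 ± 0.16. Zfp42 (Rex1), a late marker, was at 1.47, 1.5 and 0.505 CPM in day 10 GFP- and 18.7, 16.1 and 19.4 CPM in day 10 GFP+ cells, and at 2.53, 1.41 and 1.05 against 63.6, 59.9 and 66.2 CPM at day 12. It rose in GFP+ cells (1.81), and the difference of effects was 1.15 ± 0.37 (edgeR adjusted p = 0.0279), which lost its call under 7 alternatives, 6 of them single libraries left out. Spp1, the secreted phosphoprotein osteopontin, was the member called the other way (-1.53 ± 0.49, adjusted p = 0.0297) and rose in GFP- cells (2.15). Its call was lost under 9 of 20 alternatives, and 21.1% of its span overlaps Gm42793 on the same strand, where reads were not counted. Esrrb (0.27, adjusted p = 0.540), Dppa3 (0.33, adjusted p = 0.637) and Klf4 (0.15, adjusted p = 0.598) were not called. In place of 9 called members there were 4 without day 10 GFP- replicate 1, and 5 without replicate 2 of the day 10 GFP- group, replicate 2 of the day 10 GFP+ group or replicate 3 of the day 12 GFP+ group.

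The enzymes of DNA methylation moved in both directions. Of 17 tested genes 5 had a higher and 3 a lower effect at day 12 (median 0.22). The share called was 47.1%, against 27.3% of all tested genes. In place of 8 called members there were 5 without replicate 1 or 2 of the day 10 GFP- group, replicate 3 of the day 10 GFP+ group, replicate 2 or 3 of the day 12 GFP+ group or replicate 3 of the day 12 GFP- group. Dnmt1, the maintenance methyltransferase, was at 434, 420 and 387 CPM in day 10 GFP- and 468, 399 and 408 CPM in day 10 GFP+ cells, and at 320, 334 and 320 against 526, 515 and 539 CPM at day 12. The day 10 gates overlapped and the day 12 gates did not, with a difference of 0.66 ± 0.12 (edgeR adjusted p = 0.00092). Its cofactor Uhrf1, which reads hemimethylated DNA, differed by 0.83 ± 0.15, and the de novo enzyme Dnmt3b by 0.85 ± 0.20. Dnmt3b fell in GFP- cells between the days (-1.21) with no call in GFP+ cells (-0.36).

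The other de novo enzyme, Dnmt3a, went the opposite way. It was at 139, 131 and 158 CPM in day 10 GFP- and 101, 98.5 and 87.4 CPM in day 10 GFP+ cells, and at 148, 150 and 161 against 56.5, 71.5 and 67.7 CPM at day 12. It was lower with GFP at both days and more so at day 12 (-0.65 ± 0.14, edgeR adjusted p = 0.0020). Dnmt3l, their catalytically inactive cofactor, was at 0.328, 0.266 and 0.0841 CPM in day 10 GFP- and 26.7, 31.6 and 47.4 CPM in day 10 GFP+ cells, and at 1.53, 2.23 and 1.78 against 84.8, 96.4 and 131 CPM at day 12. The difference for Dnmt3l was not called (adjusted p = 0.118) but was with the replicate block that pairs libraries by line (adjusted p = 0.0370). Of the TET dioxygenases, which oxidise 5-methylcytosine, Tet3 was lower with GFP at both days and more so at day 12 (-0.83 ± 0.16, edgeR adjusted p = 0.0012), and Tet2 was not called (0.47 ± 0.27, adjusted p = 0.216). Tet1, whose reporter was gated as positive in all 4 groups, was at 264, 244 and 193 CPM in day 10 GFP- and 530, 384 and 407 CPM in day 10 GFP+ cells, and at 196, 182 and 158 against 524, 530 and 498 CPM at day 12, a difference of 0.62 ± 0.22 (adjusted p = 0.0439) whose call was lost under 10 of 20 alternatives.

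Polycomb repressive complex 2, which places H3K27 methylation, had a higher effect at day 12 in 6 of 11 tested members and a lower one in 0 (median 0.39). Its share called was 54.5%, beside 27.3% of all tested genes. The accessory subunit Mtf2, which guides the complex to CpG islands, was at 129, 125 and 111 CPM in day 10 GFP- and 274, 234 and 244 CPM in day 10 GFP+ cells, and at 112, 102 and 90.7 against 461, 421 and 380 CPM at day 12. The gates were apart at both days (difference 1.00 ± 0.19, edgeR adjusted p = 0.00092). The core subunits Suz12 and Eed differed by 0.82 ± 0.17 and 0.61 ± 0.18. The count of called members fell to 2 without day 10 GFP- replicate 1 and to 3 without day 10 GFP+ replicate 2 or day 12 GFP- replicate 3.

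Cell division genes had a higher effect at day 12 in 20 of 25 cases and a lower one in 0 (median 0.54). Between the days 23 members fell in GFP- cells (median -0.45) and 0 rose, while in GFP+ cells 5 rose and 2 fell (median 0.09). Mcm5, a subunit of the replicative helicase, was at 291, 277 and 252 CPM in day 10 GFP- and 304, 300 and 294 CPM in day 10 GFP+ cells, and at 163, 180 and 153 against 312, 339 and 319 CPM at day 12. The day 12 GFP- libraries were the lowest, at most 180 CPM, and all others lay between 252 and 339 CPM (difference 0.84 ± 0.13, edgeR adjusted p = 0.00030). Its partners Mcm3 and Mcm6 differed by 0.79 ± 0.10 and 0.68 ± 0.11. The members with no call were Mki67 (0.26), Cdk1 (0.27), Cdc20 (0.20), Ccne1 (0.12) and Ccne2 (0.71). The count was 13 of 25 without day 10 GFP- replicate 1, day 10 GFP+ replicate 2, day 10 GFP+ replicate 3 or day 12 GFP- replicate 3.

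Replication genes are classic targets of the E2F factors, and the promoters of Mcm5 (chr8:75109310-75109417, plus strand) and Mcm6 (chr1:128359758-128359865, minus strand) are shown because both genes were called and hold the E2F-type letters TTTGGCGC, in capitals and in Mcm5 as the reverse complement (RefSeq, GRCm38.p6, 5′ to 3′ on the gene's strand).
Mcm5: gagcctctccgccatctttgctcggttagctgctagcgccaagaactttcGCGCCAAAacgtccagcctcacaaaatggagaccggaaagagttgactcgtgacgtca
Mcm6: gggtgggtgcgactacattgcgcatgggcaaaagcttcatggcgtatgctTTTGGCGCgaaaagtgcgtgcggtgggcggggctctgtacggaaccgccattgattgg
These letters were in 2 of the 21 promoters of the list in the table (9.52%), in 2.05% of those of genes called higher, in 0.215% of those called lower and in 0.908% of all 10793, over 250 bases and both strands.

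In the integrated stress response list, which covers ATF4 targets of amino acid supply, 6 of 18 had a higher and 1 a lower effect (median 0.40). That is 38.9% called, beside 27.3% of all tested genes. Asns, asparagine synthetase, was at 124, 104 and 105 CPM in day 10 GFP- and 283, 218 and 279 CPM in day 10 GFP+ cells, and at 95.2, 91.6 and 86.3 against 539, 538 and 592 CPM at day 12. It was higher with GFP in every line at both days, and rose in GFP+ cells (1.10) so that the difference was 1.38 ± 0.15 (edgeR adjusted p = 3.6e-05). Mthfd2, of mitochondrial folate metabolism (1.40 ± 0.21), and Psat1, of serine synthesis (0.91 ± 0.15), went the same way, and Slc7a11, the cystine carrier, the opposite way (-1.48 ± 0.43). Of the Mthfd2 span 13.8% overlaps Gm43890 on the same strand, where reads were not counted.

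In glycolysis 5 of 22 genes had a higher and 2 a lower effect (median 0.24), and without day 10 GFP+ replicate 2 the called members were 4 in place of 7. The share called was 31.8% in glycolysis and 23.1% in oxidative phosphorylation, both near the 27.3% of all tested genes. Ldhb, the lactate dehydrogenase subunit that favours pyruvate formation, was at 67.4, 55.8 and 63.0 CPM in day 10 GFP- and 82.8, 70.1 and 88.2 CPM in day 10 GFP+ cells, and at 63.6, 63.5 and 62.1 against 232, 194 and 233 CPM at day 12. It rose in GFP+ cells (1.45) with GFP- values that stayed between 55.8 and 67.4 CPM (difference 1.43 ± 0.14, edgeR adjusted p = 1.0e-05). Hk2, hexokinase 2, differed by 0.92 ± 0.14 and Eno2, the neuronal enolase, by -1.52 ± 0.31. Of 26 oxidative phosphorylation genes 5 had a higher and 1 a lower effect (median 0.28), Cox5a (0.85 ± 0.19) and Ndufb5 (0.62 ± 0.13) among the higher. That count of 6 called members was 17 with the 4 groups of the contrast alone and 3 to 5 with 1 library left out. Of 8 mitochondrially encoded genes 0 were called.

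Germline genes had strong GFP effects at both days, with a list median of 1.97 at day 10 and 4.29 at day 12. The difference was higher in 5 of 30 tested genes and lower in 1, a share called of 20% beside 27.3% of all tested genes. The median difference was 0.92, or 1.68 with group means at or under 3 counts per library set to that floor, since 12 members had a group with 0 counts and 21 a group mean at or under the floor. Stag3, a meiotic cohesin subunit, was at 1.80, 1.86 and 2.52 CPM in day 10 GFP- and 4.55, 5.29 and 7.25 CPM in day 10 GFP+ cells, and at 3.49, 3.29 and 2.94 against 29.0, 39.8 and 43.6 CPM at day 12. The gates were apart at both days, and the difference was 2.07 ± 0.29 (edgeR adjusted p = 0.00017). Fkbp6, a cochaperone of the piRNA pathway, was at 0.328, 0.266 and 0.168 CPM in day 10 GFP- and 1.23, 0.841 and 1.04 CPM in day 10 GFP+ cells, and at 0.239, 0 and 0.210 against 5.13, 4.54 and 5.19 CPM at day 12 (adjusted p = 0.0075). Its GFP- values were at or near 3 counts in a library (0.231 to 0.387 CPM, depending on the group), so no fold is given. Tex14, which keeps the bridges between spermatocytes open and was named by size, differed by 2.64 ± 0.50. Of the other called members, chosen after their values were seen, the meiotic genes Sycp3, Tex11 and Mov10l1 were higher at under 1 CPM in GFP- cells, and the homeobox gene Rhox9 was the lower one (-1.06 ± 0.37, adjusted p = 0.0404). Members with very low GFP- levels were not called in spite of high GFP+ means at day 12: Dazl was at 14.3 CPM there against 0.923 CPM in day 10 GFP+ cells, and Rpl10l at 24.8 against 2.15 CPM. The count of called members was 3 without day 10 GFP- replicate 1, day 12 GFP- replicate 1 or day 12 GFP+ replicate 3, in place of 6.

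The promoters of Stag3 (chr5:138280289-138280394, plus strand) and Fkbp6 (chr5:135350090-135350195, minus strand) are shown because both were called in the germline list and hold the E-box CACGTG, in capitals, the binding letters of MYC, MAX and related factors (RefSeq, GRCm38.p6, 5′ to 3′ on the gene's strand).
Stag3: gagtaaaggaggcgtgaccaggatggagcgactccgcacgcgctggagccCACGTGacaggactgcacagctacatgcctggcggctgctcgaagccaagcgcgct
Fkbp6: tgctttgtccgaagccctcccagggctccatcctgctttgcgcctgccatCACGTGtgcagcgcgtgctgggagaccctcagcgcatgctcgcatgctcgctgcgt
The E-box was in 13 of the 26 germline promoters in the table (50%), against 9.66% of those of genes called higher, 7.78% of those called lower and 9.70% of all 10793, over 250 bases and both strands. The germline share thus comes with a list in which few members were called, and the share among called genes was near that of all promoters.

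The remaining lists had few calls or calls of both signs. The share called was 31.6% for formative and primed genes, 40% for neural genes, 33.3% for LIN28 and let-7 targets and 20% for BMP and WNT genes. Over all tested genes it was 27.3%. Of 19 formative and primed genes 5 were lower and 1 higher, with a median of -0.27 that became 0.12 with low group means set to the floor; Sox4, a SOX factor of progenitors, differed by -0.87 ± 0.18. Of 15 neural genes 5 were higher and 1 lower (median 0.45): Mapt, the microtubule protein tau, was at 11.2, 12.8 and 12.4 CPM in day 10 GFP- and 11.2, 10.6 and 11.8 CPM in day 10 GFP+ cells, and at 6.88, 7.64 and 9.23 against 22.9, 26.7 and 32.8 CPM at day 12. Its gates overlapped at day 10 and were apart at day 12 (1.93 ± 0.23, edgeR adjusted p = 6.0e-05). Stmn2, another microtubule regulator, differed by 0.65 ± 0.19. Of 12 LIN28 and let-7 targets 4 were higher and 0 lower, Igf2bp1 among them (0.71 ± 0.20). That count was 1 without day 10 GFP- replicate 1 or day 12 GFP- replicate 3, and 2 without replicate 2 of the day 10 GFP-, day 10 GFP+ or day 12 GFP+ group or day 10 GFP+ replicate 3. The neural count of 6 was 2 without day 10 GFP- replicate 2, day 12 GFP+ replicate 3 or day 12 GFP- replicate 3, and 3 without replicate 1 of either day 10 group or day 10 GFP+ replicate 3. Of 15 BMP and WNT genes 2 were higher and 1 lower: the WNT feedback inhibitor Notum differed by 3.46 ± 0.61 and Axin2 by 1.60 ± 0.48, while the ligand Bmp4 differed by -1.44 ± 0.39. The size of the Notum difference is uncertain, since its day 12 GFP- mean of 0.237 CPM was near 3 counts in a library (0.231 CPM). With the replicate block 7 of these 15 were called, as without day 10 GFP- replicate 3, and 5 without day 10 GFP+ replicate 1.

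Epithelial genes were higher with GFP in 12 of 25 cases at day 10 and 16 at day 12, but the difference was called in 1 direction or the other in just 2. That share of 8% compares with 27.3% of all tested genes. Epcam, an adhesion molecule of epithelia and pluripotent cells, differed by 0.06 ± 0.23 (adjusted p = 0.884), with an effect of 0.87 at day 10 and 0.93 at day 12. Cdh1, E-cadherin, differed by 0.45 ± 0.18 (adjusted p = 0.0657). Krt19, a keratin of simple epithelia, was lower with GFP at both days and more so at day 12 (-0.87 ± 0.27, adjusted p = 0.0225), a call lost without replicate 2 of the day 10 GFP+, day 10 GFP- or day 12 GFP+ group or replicate 3 of the day 12 GFP+ group. In the keratinocyte-like list 2 of 10 (20%) were lower, Krtdap (-2.31 ± 0.54) and the galectin Lgals7 (-1.16 ± 0.34), and Krt5 and Krt14 were too low to test. Of 18 trophectoderm and placenta genes 2 (11.1%) were lower and 0 higher. With the replicate block 4 of each of these 2 lists were called. Of 9 tested genes of the 2-cell-like state 0 were called. This says little, since 8 of them had a group with 0 counts and were too low to give a call. Eif1a, the member with ample counts, differed by 0.29 (adjusted p = 0.114). Myc had a GFP effect of -0.35 at day 10 and -0.68 at day 12, a difference of -0.33 ± 0.13 (adjusted p = 0.0585).

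The ends of the process give the called genes a direction that the contrast did not use. The mean level in wild-type iPSC was above that in day 8 mCherry+/GFP- cells for 1458 of the 1603 genes called higher (91%) and for 212 of the 2540 called lower (8.35%), against 7825 of all 15197 tested genes (51.5%). Col1a1 was at 3443, 5836 and 4971 CPM at day 8 and 423.5, 470.3 and 497.8 CPM in iPSC, so that 1 of its 3 day 12 GFP+ libraries, at 460.1 CPM, lay within the iPSC range and the others, at 568.7 and 591.4 CPM, above it. Its day 12 GFP- levels of 2003 to 3011 CPM were far above that range. Kit was at 44.7, 48.7 and 51.9 CPM at day 8 and 158, 134 and 172 CPM in iPSC, with day 12 GFP+ cells at 125 to 138 CPM and day 12 GFP- cells below the day 8 values. Mmp13 was at 9.32 to 12.5 CPM at day 8 and 0.896 to 1.88 CPM in iPSC. The iPSC values were below all 12 libraries of the contrast, and the day 8 values overlapped those of day 10 GFP- cells.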

How the data were processed

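Poly(A) RNA of sorted cells was sequenced as stranded libraries. The authors deposited unnormalised read counts for each gene name. Per the file headers, featureCounts 1.5.3 counted reads on the reverse strand over whole gene bodies of a GENCODE GRCm38.p5 annotation. HISAT2 2.1.0, mm10 and DESeq2 1.18.1 are named in the submitters' processing notes.

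All 21 libraries of the table were fitted together in edgeR 4.0.16 (R 4.3.3) after filterByExpr and TMM scaling, with the quasi-likelihood test on the contrast of 4 group means and Benjamini-Hochberg adjustment over 15197 genes at 0.05. CPM use TMM-scaled totals. DESeq2 1.42.0, other scalings and filters, a block by line and each library left out were alternatives. Named by rule were the 12 largest called differences in each direction (10 CPM or more in the highest group, same sign in each line, predicted and clone names left out), up to 3 called members of each list with the smallest p and 1 called against most, and a set of reprogramming genes called or not. Any other gene was named after its values were seen. The members, gene lists and tests were chosen with earlier results of these data known. Libraries of a line correlated in their deviations from the group means in 18 of 18 pairs (r from 0.181 to 0.593), and the growth protocol gives the lines as the source of this pairing. The main fit had no term for the line, so its standard errors and p-values do not use the pairing. In simulated data the test recovered 5.97% of 1.5-fold, 40.3% of 2-fold and 77.3% of 4-fold differences of effects, and called 5 of 14997 unchanged genes. The simulation changed few genes and drew the libraries independently, with no line effect. Its rates therefore need not hold for the real contrast, where 27.3% of genes were called.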

Additional observations from a re-analysis of the deposited data

Results flagged for a closer look

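The contrast is itself a test of whether the GFP effect differs between the days, and 4143 genes passed it by edgeR's quasi-likelihood test with Benjamini-Hochberg adjustment. Among the genes named in the text, those with a called effect of opposite sign at the 2 days are given here with their difference of log2 effects. From higher with GFP at day 10 to lower at day 12 went Mmp13 (-3.73), Cd36 (-3.31), C3 (-3.18), Cyp2d22 (-3.16), Lbp (-3.12), Htra3 (-3.11), Srpx2 (-3.09), Wisp2 (-3.09), Cdkn1c (-2.80) and Mest (-1.58). Vax2 (2.66) went from lower to higher.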

How the results depend on the processing

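The number of genes called higher, 1603, became 2727 with the 4 groups of the contrast alone and 2581 without the wild-type iPSC library of high mitochondrial share, an alternative chosen after seeing the data. Leaving out 1 library gave 918 to 1643 genes called higher, with 918 without day 10 GFP- replicate 1, 952 without day 10 GFP+ replicate 2 and 1006 without day 12 GFP- replicate 3. It gave 2107 to 3946 genes changed over time in GFP+ cells, the lowest without day 10 GFP+ replicate 2, and 2630 to 4486 in GFP- cells, with 2630 and 2771 without day 10 GFP- replicates 1 and 2. The replicate block by line gave 4517 calls, gained Dnmt3l and moved the BMP and WNT, trophectoderm and keratinocyte-like counts. Other scalings moved the median of all genes to between -0.02 and 0.047 (log2). Of 107 named called genes 94 kept their call and direction under all 20 alternatives. Most of these genes were named for a large difference or a small p, so this share does not describe called genes at large. Among differences that were not called, 4 turned sign. With 1 library left out the difference ran from -0.184 to 0.084 for Pou5f1, from -0.039 to 0.568 for Lin28a, from -0.012 to 0.446 for Esrrb and from -0.081 to 0.217 for Epcam. Pou5f1 was 0.020 with RLE size factors and 0.021 with DESeq2. Lin28a and Esrrb were below 0 without day 10 GFP- replicate 1 alone. The causes were not tested.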

Other observations

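Xist, the noncoding RNA that silences an X chromosome in female cells, was looked at after its values were seen, in libraries labelled male. It was at 2.38, 11.4 and 9.34 CPM in day 10 GFP- and 14.6, 32.5 and 27.8 CPM in day 10 GFP+ cells, and at 5.54, 7.17 and 5.56 against 8.06, 7.52 and 7.5 CPM at day 12. Every GFP+ library was above every GFP- library at both days, and the difference of effects was not called (-1.35, edgeR adjusted p = 0.109).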
